A study of Danio rerio with 12 samples.

Results

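The transcriptome of wild-type zebrafish larvae was compared between 8 and 5 days post fertilization (dpf). The comparison holds 18533 Ensembl identifiers of 20963 that have a value at both ages, chosen because their mean over the wild-type pools was at least 20 at each age. In all, 20963 identifiers had a value at 8 dpf and 31953 at 5 dpf. The 6 wild-type (WT) libraries of the AB line are WT 8 dpf pools 1 to 3 and WT 5 dpf pools 1 to 3, out of 12 libraries in the series. Each pool was made of 5 whole larvae that carry wild-type *mia40a*. The WT 8 dpf larvae received external food from 5 dpf until collection, and the WT 5 dpf larvae were collected at the start of that period. The other 6 libraries come from larvae homozygous for the waw1 allele of *mia40a* (*mia40a* waw1/waw1, called Mut) at the same ages, and they are used here only to set values beside those of WT. Age, feeding and a separate normalization of the tables change together between the WT groups and cannot be told apart. For this reason no test was made between the ages, no p is given, and only large differences and ranks are described.

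Between these ages the zebrafish larva uses up its yolk and turns to feeding. The intestine, the exocrine pancreas and the liver take over nutrition: enterocytes carry brush border peptidases and transporters, acinar cells of the pancreas secrete proenzymes such as trypsinogen, and hepatocytes release plasma proteins and lipoproteins. The skeleton begins to mineralize, the larval fin fold with its collagenous actinotrichia is later replaced by rayed fins, and fibre cells that fill with crystallin proteins are added to the lens throughout life. Ionocytes of the skin take up calcium and other ions from the water.

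Each library was rescaled to the same total of 20581019 over the kept identifiers, and these rescaled values are given below in the order of pools 1, 2 and 3. A difference is the mean of log2(value + 1) at 8 dpf minus that at 5 dpf, ± its standard error from 3 pools an age. The labels do not say whether the pools of an age came from separate clutches, so this error covers only the spread between these pools. A difference of 1 is a 2-fold and one of 2 a 4-fold change. The values are not divided by gene length, so levels are not compared between genes. They come from whole larvae, in which fewer cells of a type and less RNA per cell cannot be told apart.

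A WT library held deposited values with a sum of 22595423 to 25417541 at 8 dpf, against 17213798 to 17872334 at 5 dpf, of which the kept identifiers hold at least 98.9%. The pools of an age lay close together, with a median standard deviation per gene of 0.14 on the log2 scale at 8 dpf and 0.13 at 5 dpf. The 50 highest identifiers of a pool held 23.0 to 26.4% of its total at 8 dpf and 20.4 to 21.2% at 5 dpf. The authors had removed a batch effect at 8 dpf. The mean log2 level of the libraries numbered 3, WT and Mut, equalled that of the other 8 dpf libraries to a median of 0.00561 per gene, against 0.0517 and 0.0537 for the libraries numbered 1 and 2. The labels do not say which libraries formed a batch. The correction was made on all 8 dpf libraries, so pools 1 and 2 hold corrected values too. By these medians, the values of WT 8 dpf pool 3 are not independent of the other 8 dpf libraries, Mut included. The standard deviation, errors and overlaps at 8 dpf rest on the spread left after this removal. Without WT 8 dpf pool 3 the counts of 4-fold differences given next were 76 higher and 1056 lower. Of 10990 identifiers without an 8 dpf value here, 697 had a WT mean of at least 20 at 5 dpf, and they were not analysed here. This loss is one-sided, because all 20963 identifiers with an 8 dpf value also had one at 5 dpf. Any of the 697 that were much lower at 8 dpf are missing from every count of lower identifiers, also with no filter.

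More genes were much lower than much higher at 8 dpf. The difference was at least 4-fold upward, with every 8 dpf pool above every 5 dpf pool, for 67 identifiers (0.362% of the 18533), and at least 4-fold downward without overlap for 1008 (5.44%). At 2-fold the counts were 539 (2.91%) higher and 3790 (20.5%) lower, and at 8-fold 11 (0.0594%) higher and 259 (1.4%) lower. Without a limit on the fold, 4552 (24.6%) were higher and 8588 (46.3%) lower without overlap, so a lack of overlap alone is common. Counts of members and mentions of overlap in each gene list below are to be read against these shares. The median difference of all kept identifiers was -0.23, and 90% of them lay between -2.06 and 0.82. This median depends on how libraries are scaled, and it was -0.01 with a median-of-ratios scaling and 0.23 with the values as deposited. The 4-fold counts were 98 higher and 735 lower with the median of ratios, and 154 higher and 544 lower with the values as deposited. Higher identifiers thus made up 6.23% of those at least 4-fold different under the scaling used below, 11.8% with the median of ratios and 22.1% as deposited. A difference can thus be read against the median of -0.23, and the excess of lower genes at 4-fold was present under each of these scalings. The count of higher identifiers also depends on the filter, and it was 192 (13.2% of those at least 4-fold different) with a mean of 20 at either age and 273 (17.7%) with no filter.

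The difference varied with the level of a gene and, more weakly, with its span. With the identifiers split into 10 equal bins by their mean value, the median difference was 0.10 in the highest bin, against -0.49 in the lowest. By the span of the gene on the chromosome, known for 15784 identifiers from RefSeq (GRCz12tu, matched by symbol), the median difference was 0.04 in the bin of the shortest genes, against -0.40 in the ninth of 10 bins and -0.30 in the last. The share of identifiers at least 4-fold higher was 2.02% in the bin of the shortest genes and at most 0.38% in the others, and the median span of the 4-fold higher identifiers was 4191 bases, against 19028 for all kept identifiers with a span. The share at least 4-fold lower was between 3.48 and 6.34% over the bins of span and between 1.46 and 8.31% over those of level. The part of level and span in the results below was not tested. Identifiers just above the filter, with the smaller of their age means between 20 and 25, numbered 546 and had a median difference of -0.80, and the 653 just below it, between 15 and 20, had one of -0.74.

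**Figure D1:**
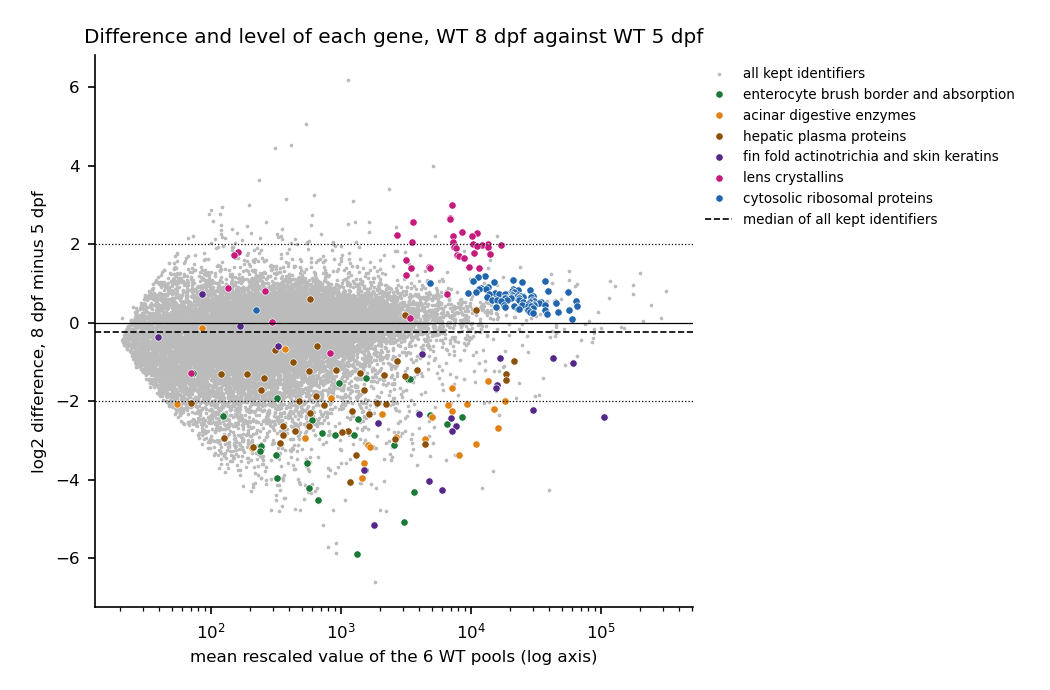
Log2 difference of each kept identifier (vertical axis, WT 8 dpf minus WT 5 dpf) against its mean rescaled value in the 6 WT pools (horizontal log axis), with 6 gene lists in colour, dotted lines at 2 and -2 and a dashed line at the median of -0.23. Most crystallins lie above 1, except among the 7 with the lowest values, of which 2 do, and most enterocyte, acinar, liver and fin fold genes lie below -1.

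The largest differences upward belonged to chaperones, lens genes and genes of unknown function. The uncharacterized gene *zgc:153846* (ENSDARG00000040738) led, with 2670.2, 2392 and 1602 at 8 dpf, against 17.5, 35.0 and 39.7 at 5 dpf (difference 6.18 ± 0.42). The stress-inducible Hsp70 gene *hspa1b* (ENSDARG00000056210) had 1206, 1298 and 669 at 8 dpf, against 22.1, 36.2 and 31.3 at 5 dpf (5.07 ± 0.36). *hsp90aa1.1*, an Hsp90 that folds myosin in skeletal muscle, had 11360.0, 9925 and 7723 at 8 dpf, against 569, 586 and 634 at 5 dpf (4.0 ± 0.17). For all of these the lowest 8 dpf pool stood many times above the highest 5 dpf pool. Pool 3 was the lowest of the WT 8 dpf pools, and the levels of all 8 dpf pools depend on the batch removal described above. *unc45b*, the myosin co-chaperone, had 4833, 5072 and 2968 at 8 dpf, against 321, 373 and 503 at 5 dpf (3.41 ± 0.31). *SMYD1*, a methyltransferase of the same myosin assembly, stood further down and was named after its values were seen. It had 2404, 2513 and 1663 at 8 dpf, against 357, 380.5 and 352 at 5 dpf (2.57 ± 0.19). The J-domain co-chaperone *dnaja* had 2357, 2688 and 1616 at 8 dpf, against 259.5, 216 and 285 at 5 dpf (3.1 ± 0.25). These pools did not overlap either, while *hsp90ab1*, the constitutive Hsp90, differed by -0.44 ± 0.03, close to the median of all identifiers. Other Hsp70 genes varied. *hsp70.3* (2.03 ± 0.55) and *hsp70.1* (1.05 ± 0.40) were higher without overlap, and *hsp70l* differed by 0.21 ± 0.39 with overlapping pools. The heat shock factor gene *hsf1* was lower (-0.82 ± 0.15) without overlap.

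*STC1*, encoding stanniocalcin, a hormone that lowers calcium uptake in fish, was also among the 12 leading genes. It had 599, 815 and 615 at 8 dpf, against 82.6, 43.5 and 117 at 5 dpf (3.14 ± 0.44), so that the lowest 8 dpf pool lay far above the highest 5 dpf pool. The calcium channel of the ionocytes, *TRPV6*, was lower, with 36.5, 32.0 and 23.4 at 8 dpf, against 623, 435 and 457 at 5 dpf (-4.00 ± 0.24). The 4 genes without a known function, *si:dkey-238c7.13* (4.52 ± 1.13), *si:ch73-110p20.1* (4.45 ± 0.27), *si:ch73-171a6.2* (3.64 ± 0.36) and *si:dkeyp-116a7.2* (3.26 ± 0.14), and *zgc:172053* (3.00 ± 0.16) were in this group as well. The first of them varied most among the 5 dpf pools, with 72.2, 6 and 69.8, and without WT 5 dpf pool 2 its difference was 3.40. Of identifiers with no symbol, the leading ones were ENSDARG00000094048 (2.77 ± 0.12) and ENSDARG00000097848 (2.15 ± 0.23).

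Further down the 67 higher identifiers stood the genes of this paragraph, named here after their values were seen. The immediate early gene *NPAS4* had 4132, 4999 and 4400.5 at 8 dpf, against 663, 855 and 998 at 5 dpf (2.44 ± 0.19), and *FOSB* (2.22 ± 0.32) and *nr4a1* (2.05 ± 0.18), of the same class, were 4-fold higher as well. *odc1*, which makes the first polyamine, had 2730.3, 3009.8 and 2677 at 8 dpf, against 422, 513 and 474 at 5 dpf (2.58 ± 0.10). *gnrh2*, a gonadotropin-releasing hormone of the midbrain, differed by 2.48 ± 0.09. Among sarcomere genes, the titin identifier *TTN* (ENSDARG00000028213) differed by 2.20 ± 0.32 and the titin cap gene *tcap* by 2.27 ± 0.20.

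**Figure D2:**
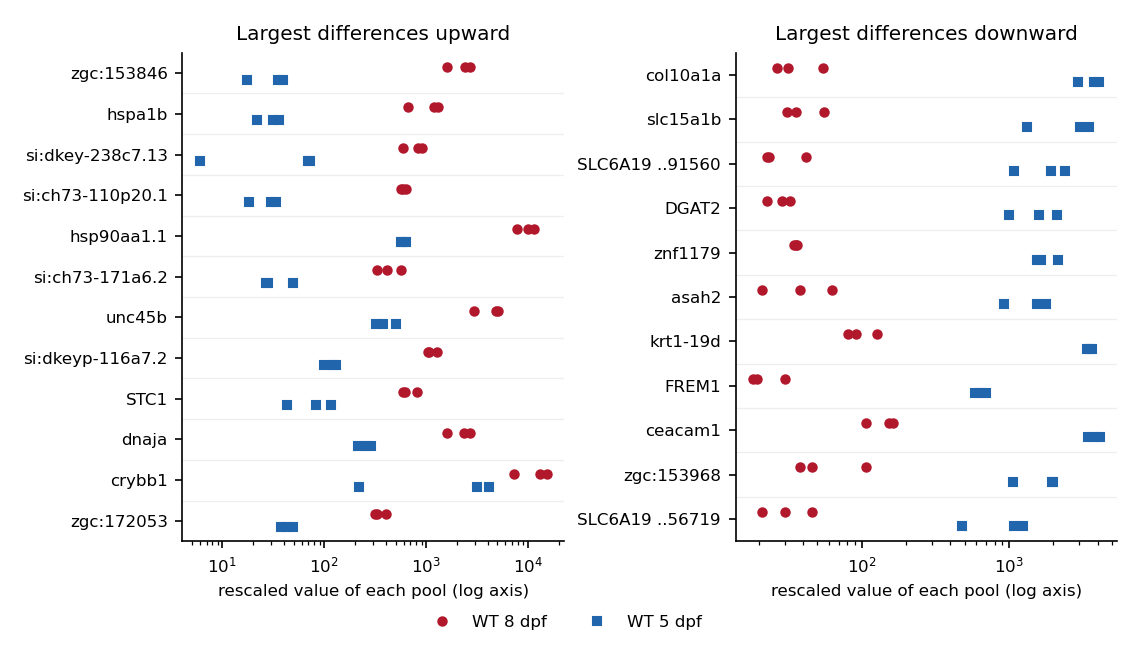
Rescaled values of the 3 WT 8 dpf pools (red circles) and the 3 WT 5 dpf pools (blue squares) on a log axis, for 12 of the largest differences upward (left) and 11 of the largest downward (right) among identifiers with a symbol. The ages do not overlap for any gene shown, and *crybb1* and *si:dkey-238c7.13* have 1 outlying pool at 5 dpf.

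The largest differences downward belonged to cartilage, gut and skin genes. *col10a1a*, a collagen of hypertrophic cartilage and early bone, had 31.6, 26.5 and 54.6 at 8 dpf, against 3766, 4113 and 2949 at 5 dpf (-6.60 ± 0.34), the largest difference among the kept identifiers. *slc15a1b*, the peptide transporter PepT1 of enterocytes, had 35.7, 31.0 and 55.4 at 8 dpf, against 3032, 1316 and 3469 at 5 dpf (-5.89 ± 0.50). *DGAT2*, which completes the synthesis of triglycerides, had 32.5, 22.8 and 28.6 at 8 dpf, against 1598, 1000.2 and 2104 at 5 dpf (-5.71 ± 0.34). In all 3 the 8 dpf pools lay close to the minimum mean of 20 that an identifier needed to be kept. *SLC6A19*, the name shared by 3 identifiers that match the neutral amino acid transporter of the brush border, is a family of similar copies whose counts are less certain, and it differed by -5.87 ± 0.44 (ENSDARG00000091560), -4.77 ± 0.53 (ENSDARG00000056719) and -4.65 ± 0.70 (ENSDARG00000018621). In *slc15a1b* the 5 dpf pool 2 was the lowest of its age and the 8 dpf pool 3 the highest of its age.

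The keratin gene *krt1-19d* had 80.3, 128 and 91.0 at 8 dpf, against 3406, 3637 and 3514 at 5 dpf (-5.15 ± 0.20). *FREM1*, of the basement membrane that anchors the epidermis and fin fold, had 19.5, 18.3 and 30.3 at 8 dpf, against 648, 701 and 589 at 5 dpf (-4.80 ± 0.23). The zinc finger gene *znf1179* (-5.60 ± 0.15), the intestinal ceramidase gene *asah2* (-5.16 ± 0.53), the adhesion gene *ceacam1* (-4.78 ± 0.20) and *zgc:153968* (-4.78 ± 0.54) were lower by a like amount. The leading identifiers with no symbol, ENSDARG00000101629 (-4.79 ± 0.50) and ENSDARG00000068586 (-4.52 ± 0.34), had differences of the same order.

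Genes of the intestine were lower throughout. Of 34 enterocyte symbols, 25 matched 27 kept identifiers, and all 27 of these were at least 2-fold lower without overlap, 21 of them 4-fold, with a median difference of -2.86. The background over all identifiers is 20.5% at 2-fold and 5.44% at 4-fold. Transporters and peptidases of the brush border led, such as the chloride exchanger *slc26a3.2* (-4.50 ± 0.57), *anpepb*, aminopeptidase N (-4.31 ± 0.33), *SLC5A1*, the sodium-glucose transporter (-4.22 ± 0.42), and *mep1a.2*, a meprin subunit (-3.96 ± 0.57). The smallest differences on the list were those of *slc5a9* (-1.28 ± 0.39, and -0.98 without WT 5 dpf pool 3) and of a *CES3* identifier (-1.41 ± 0.36), and the lipid-binding genes *fabp6* (-1.43 ± 0.18) and *fabp2* (-2.39 ± 0.54) lay within the range. The cytoskeletal brush border gene *vil1* had 397, 463 and 743 at 8 dpf, against 5028, 3088 and 5658 at 5 dpf (-3.11 ± 0.38). Together the list held 0.055 to 0.0981% of a library's total at 8 dpf, against 0.282 to 0.486% at 5 dpf. The vitamin A carrier *rbp2b*, which the study follows, had 542, 466 and 470.4 at 8 dpf, against 1437, 1261 and 1634 at 5 dpf (-1.54 ± 0.13). The study describes *rbp2b* as expressed mainly in the liver. Outside the list, *NPC1L1*, the cholesterol uptake protein, differed by -4.34 ± 0.42 and *acsl5*, an acyl-CoA synthetase, by -4.50 ± 0.52, both named after their values were seen.

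Of the secreted hydrolases grouped as food-lumen enzymes, 9 of 13 were at least 2-fold lower and 1 higher (median -1.64). The acidic chitinases *chia.2* (-3.76 ± 0.66) and *chia.3* (-3.42 ± 0.79) had the largest differences. *ctsl.1*, a cathepsin, differed by 0.05 ± 0.18 with overlapping pools. The one identifier that was higher, *dnase1l3l* (ENSDARG00000023861, 1.15 ± 0.41, and 0.82 without WT 5 dpf pool 1), also carries the name *dnase1l1l*, a nuclease of lens fibre cells, and is counted with the lens genes as well.

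Acinar genes of the pancreas were lower as well. Of 24 kept identifiers (of 30 symbols), 22 were at least 2-fold and 18 at least 4-fold lower, and none was higher, with a median of -2.35. The trypsinogen gene *try* had 3729, 8165 and 12153 at 8 dpf, against 33792, 26525 and 26189.8 at 5 dpf (-2.0 ± 0.51). The 8 dpf pools of *try* differed widely among themselves, with pool 1 the lowest, and so did the whole list, with 0.114 to 0.372% of the total at 8 dpf, against 0.955 to 1.28% at 5 dpf. The largest differences were those of *pdia2*, the disulfide isomerase of acinar cells, with 94.9, 205 and 265 at 8 dpf, against 3368, 2566 and 2202 at 5 dpf (-3.94 ± 0.48), and of the bile salt lipase *cel.2* (-3.58 ± 0.49). An elastase-like *CELA1* identifier (ENSDARG00000043173) with values that overlap between the ages (-0.12 ± 0.74, and 0.10 with the median-of-ratios scaling) and the inhibitor *spink4* (-0.67 ± 0.24) showed the smallest. Of the islet hormone genes, *ins*, encoding insulin, had 65.7, 108 and 106 at 8 dpf, against 168, 130.5 and 390.0 at 5 dpf (-1.16 ± 0.53) and *gcga*, a glucagon gene, differed by -1.51 ± 0.33, while *trh*, encoding the thyrotropin-releasing hormone of the brain, was higher by 0.93 ± 0.05 and the neuropeptide *VIP* by 0.76 ± 0.12. Over the 13 kept identifiers of the hormone list, which also holds the brain peptides and genes such as *pdx1*, *pcsk1* and *chga*, the median was -0.56.

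Liver genes were lower with clear exceptions. Of 44 plasma protein identifiers, 36 were at least 2-fold and 21 at least 4-fold lower, none was 2-fold higher, and the median was -1.93. The inter-alpha-trypsin inhibitor chains *itih3b* (-4.06 ± 0.21) and *itih2* (-3.36 ± 0.26) and the complement gene *c3a.1* (-3.10 ± 0.15) were among the lowest. *cp*, encoding the copper carrier ceruloplasmin, had 741, 817 and 959.8 at 8 dpf, against 3229, 2561 and 5135 at 5 dpf (-2.06 ± 0.31). Transferrin (*tfa*, -1.31 ± 0.27) and the fibrinogen gene *fga* (-0.96 ± 0.23) differed by less. In contrast, *fabp10a*, the liver fatty acid-binding protein that marks hepatocytes in zebrafish, had 14151, 10489 and 11842 at 8 dpf, against 8132, 10839 and 10315 at 5 dpf (0.32 ± 0.18), so its pools overlapped. *serpina7*, a thyroxine-binding globulin, was higher, with 703, 797 and 603 at 8 dpf, against 446, 374 and 556 at 5 dpf (0.62 ± 0.20). The coding genes of lipoproteins spread as widely: 11 of 16 were 2-fold lower, with *apobb.1*, the main apolipoprotein B gene of the larva, at 4226, 2644 and 5116 at 8 dpf, against 70317, 54511 and 103335 at 5 dpf (-4.25 ± 0.39). Its partner in lipoprotein assembly, *mtp*, differed by -2.84 ± 0.39, whereas the small apolipoprotein *apoc1* differed by -0.02 ± 0.23 (0.20 with the median-of-ratios scaling). Among single genes named after their values were seen, the liver and gut regulator *HNF4A* differed by -3.88 ± 0.23, the bile acid-responsive repressor *NR0B2* by -4.48 ± 0.34 and *CYP7A1*, the rate-limiting enzyme of bile acid synthesis, by -4.12 ± 0.35.

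Skin, fin fold and skeleton formed the other large group of lower genes. Of 21 identifiers for actinotrichia and keratins, 14 were at least 2-fold lower without overlap and 11 at least 4-fold, with a median of -2.22. *and2*, an actinodin that builds the actinotrichia, had 514, 659 and 570.0 at 8 dpf, against 12518, 13252 and 8252 at 5 dpf (-4.26 ± 0.24), and *and1* (-4.04 ± 0.27) and *and3* (-3.74 ± 0.31) were alike. *krt4*, a major keratin of the surface epithelium, had 24919, 37107 and 39227 at 8 dpf, against 175219.8, 182058 and 169924 at 5 dpf (-2.41 ± 0.21). The smallest differences on the list were those of 3 identifiers named *TGM1*, a cross-linking enzyme of the skin, whose pools overlapped, with 0.72 ± 0.39 for the only one above 0 under the main scaling. The keratin gene *krt5* (-1.03 ± 0.24) and the epithelial adhesion gene *epcam* (-0.81 ± 0.16) lay in between.

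Of 30 cartilage and bone identifiers, 24 were 2-fold lower, 10 4-fold, and none 2-fold higher without overlap (median -1.55). After *col10a1a* came *spp1*, osteopontin of bone, with 24.3, 12.8 and 38.1 at 8 dpf, against 308, 284 and 282 at 5 dpf (-3.61 ± 0.44). The cartilage collagen gene *COL11A2* (-2.49 ± 0.24) and *acana*, aggrecan (-2.34 ± 0.17), were more than 4-fold lower, and *col1a1a*, the collagen of bone and skin, differed by -1.84 ± 0.09. *matn3a*, a matrilin, stood apart with 66.5, 660.0 and 331 at 8 dpf, against 150.1, 352 and 26.5 at 5 dpf (1.11 ± 1.46), and *ucmaa*, of cartilage too, with 0.13 ± 0.14, both with overlapping pools. Among the ion transport genes, 10 of 18 were 2-fold lower and 1 higher (median -1.24). *ca15a*, a carbonic anhydrase of acid-secreting ionocytes, had 74.6, 72.1 and 60.6 at 8 dpf, against 662, 713 and 549 at 5 dpf (-3.19 ± 0.14), and the sodium pump subunit *atp1a1a.2* differed by -2.79 ± 0.25. The potassium channel *kcnj1b* was the one that was 2-fold higher, with 106, 132 and 139.5 at 8 dpf, against 50, 66.4 and 43.3 at 5 dpf (1.23 ± 0.22).

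**Figure D3:**
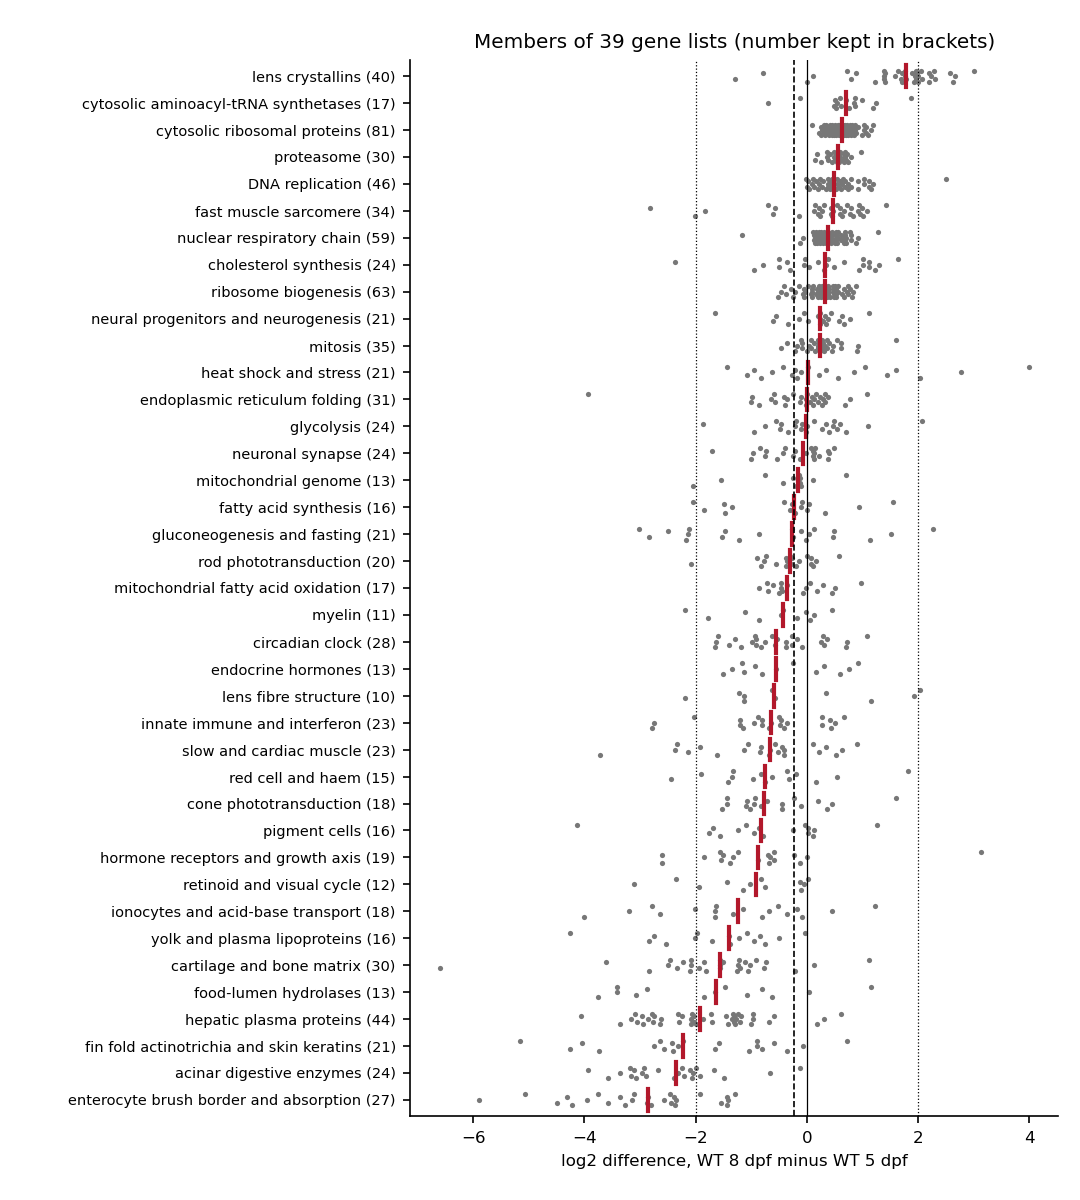
Log2 difference (horizontal axis, WT 8 dpf minus WT 5 dpf) of every kept member (grey points) of 39 gene lists, ordered by the median (red bar), with the number of members in brackets, a dashed line at the median of all identifiers (-0.23) and dotted lines at 2 and -2. The crystallins stand at the top with a median of 1.78, and the enterocyte genes at the bottom with -2.86.

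The lens crystallins were the one list with a median above 1. Of 40 identifiers kept (of 57 symbols), 33 were at least 2-fold and 13 at least 4-fold higher without overlap, against 2.91% and 0.362% of all identifiers, and the median was 1.78. *crybb1*, a beta crystallin, had 15192, 13191 and 7259 at 8 dpf, against 218, 3129.9 and 4131 at 5 dpf (3.00 ± 1.39). Its large error came from WT 5 dpf pool 1, and without that pool the difference was 1.66. The gamma-M crystallin *crygmxl2*, a member of a family that is abundant in fish lenses, had 14683, 12361 and 8434 at 8 dpf, against 1099.9, 2058 and 2663 at 5 dpf (2.66 ± 0.45). In these genes WT 5 dpf pool 1 was the lowest and pool 3 the highest of its age. WT 8 dpf pool 3 was the lowest of its age, while Mut 8 dpf pool 3 was the highest of the Mut 8 dpf pools. The levels of all 8 dpf libraries depend on the batch removal. Counts of the gamma-M genes are less certain, because near-identical copies lose reads that align to several places. The list as a whole took 1.5 to 2.39% of a library at 8 dpf, against 0.415 to 0.779% at 5 dpf. The difference was negative for 2 members. *cryaa*, the alpha crystallin that acts as a chaperone, had 526, 711 and 510.2 at 8 dpf, against 546, 1129.5 and 1571 at 5 dpf (-0.78 ± 0.48) with overlapping pools. *crybb1l3* had 34.9, 42.0 and 43.3 at 8 dpf, against 87.3, 89.4 and 123 at 5 dpf (-1.28 ± 0.18) without overlap.

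The structural genes of lens fibres were divided, with a median of -0.59. Of 10, 3 were 2-fold higher and 3 2-fold lower. *lgsn*, lengsin, had 927, 1008 and 673 at 8 dpf, against 108, 239 and 343 at 5 dpf (2.04 ± 0.52, and 1.58 without WT 5 dpf pool 1) and the beaded filament gene *bfsp2* differed by 1.94 ± 0.55. The water channel of the fibre membrane *mipa* was lower, with 353, 392 and 314 at 8 dpf, against 1167, 1592 and 2225 at 5 dpf (-2.19 ± 0.28), and the connexin *cx23* differed by -1.22 ± 0.25. In the retina, 6 of 18 cone genes were 2-fold lower (median -0.77), against 20.5% of all identifiers. Among them were the opsins *opn1lw2* (-1.52 ± 0.19) and *opn1mw1* (-1.44 ± 0.14). The opsins *opn1lw1* (0.20 ± 0.42) and *opn1mw2* (-0.23 ± 0.26) had overlapping pools, and *pde6ha*, an inhibitory subunit of the cone phosphodiesterase, was higher (1.60 ± 0.14). Of 20 rod identifiers, only *rcvrna*, recoverin, was 2-fold lower (-2.08 ± 0.15). Rhodopsin, *rho*, had 35945, 32277 and 38089.5 at 8 dpf, against 43705, 50393 and 43591 at 5 dpf (-0.37 ± 0.10), a difference near the median of all identifiers. The rod median was -0.30, and 0.16 with the values as deposited. Of 12 retinoid genes 6 were 2-fold lower (median -0.92), and *bco1l*, which cleaves carotenoids, differed most (-3.11 ± 0.35).

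Genes of protein synthesis and of cell growth were moderately higher and few of them reached 2-fold. All 81 cytosolic ribosomal protein identifiers had a positive difference, between 0.10 and 1.19 with a median of 0.64, and 8 were at least 2-fold higher. *rplp2l* (1.19 ± 0.12) and *rpl38* (1.16 ± 0.09) led, and *rpl3* (0.10 ± 0.06) and *gnb2l1*, the ribosomal scaffold Rack1 (0.21 ± 0.03), were last. The list made up 11 to 12.6% of a library at 8 dpf, against 7.73 to 8.2% at 5 dpf. The median of 30 proteasome genes was 0.57 and none reached 2-fold, with *PSMB7* highest (0.97 ± 0.17). Aminoacyl-tRNA synthetases had a median of 0.71 over 17, led by *wars* with 585, 671 and 639 at 8 dpf, against 144, 181 and 193 at 5 dpf (1.87 ± 0.14), and *larsa* was the lowest (-0.70 ± 0.23). Ribosome biogenesis genes (0.33, 63 genes, led by *DKC1* at 0.88 ± 0.05) and nuclear genes of the respiratory chain (0.39, 59 genes) shifted by less. Of the respiratory chain, *uqcrb* of complex III was highest (1.28 ± 0.06) and the muscle isoform *cox6a2* of complex IV lowest (-1.17 ± 0.11). Transcripts of the mitochondrial genome had a median of -0.15, which was 0.07 with the median-of-ratios scaling, with *MT-ND6*, the one protein gene on the light strand, highest (0.71 ± 0.06) and *mt-atp8* lowest (-2.05 ± 0.14).

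Replication genes were higher in most cases. Of 46, 7 were 2-fold higher and none 2-fold lower, with a median of 0.49. One of the identifiers for the small ribonucleotide reductase subunit, *rrm2* (ENSDARG00000078069), had 1021, 995 and 881 at 8 dpf, against 338, 211 and 67.4 at 5 dpf (2.5 ± 0.69, and 1.85 without WT 5 dpf pool 3), while the other, *RRM2* (ENSDARG00000020711), differed by 0.03 ± 0.45 with overlapping pools. *pcna*, the sliding clamp, had 7426, 8901 and 8511 at 8 dpf, against 3650.0, 4086 and 3680.0 at 5 dpf (1.12 ± 0.09). The helicase subunits *mcm3* (-0.004 ± 0.07, and 0.22 with the median-of-ratios scaling) and *mcm6* (0.01 ± 0.04) lay near 0. Mitotic genes had a median of 0.23, 22 of 35 with overlapping pools, and only *trip13*, of the spindle checkpoint, was 2-fold higher (1.62 ± 0.23). At any fold, 24.6% of all identifiers were higher and 46.3% lower without overlap.

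**Figure D4:**
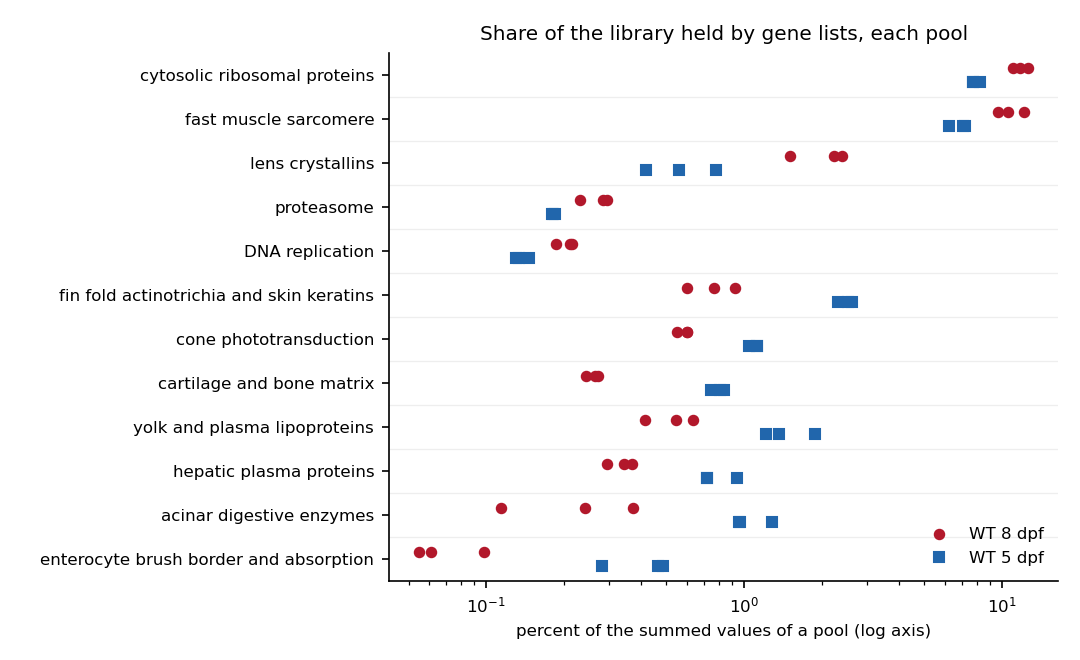
Percent of the summed rescaled values (horizontal log axis) that 12 gene lists hold in each WT 8 dpf pool (red circles) and each WT 5 dpf pool (blue squares). The ages do not overlap for any of the lists shown, and acinar genes vary most among the 8 dpf pools, from 0.114 to 0.372%.

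In metabolism, single genes differed far more than the list medians. *pfkmb*, a phosphofructokinase of muscle, was 2-fold higher (1.1 ± 0.18, and 0.96 without WT 8 dpf pool 1). The glycolysis median was -0.004 (0.22 with the median-of-ratios scaling). Of 21 gluconeogenesis and fasting genes, 9 were 2-fold lower and 3 higher (median -0.26, and 0.21 with the values as deposited). Over all identifiers the shares were 20.5% and 2.91%. The higher ones were *sesn2* (1.14 ± 0.11) and the lipid storage genes *g0s2* and *plin2* given below, none of them an enzyme of glucose synthesis. The lower ones included *pck2* (-3.01 ± 0.25) and *fbp1b* (-2.84 ± 0.29), both enzymes of glucose synthesis. Among single genes of lipid storage, *g0s2*, an inhibitor of lipolysis, had 485, 127 and 197 at 8 dpf, against 33.8, 48.3 and 61.4 at 5 dpf (2.28 ± 0.62, and 1.74 without WT 8 dpf pool 1), and *plin2*, a lipid droplet coat protein, had 136, 38.3 and 65.8 at 8 dpf, against 18.6, 31.4 and 22.9 at 5 dpf (1.52 ± 0.56). In both of them WT 8 dpf pool 1 was the highest, while *DGAT2*, described above, differed by -5.71. In cholesterol synthesis 7 of 24 genes were 2-fold higher (median 0.33). *sqlea*, squalene epoxidase, had 599.6, 483 and 479 at 8 dpf, against 106, 199 and 213 at 5 dpf (1.64 ± 0.34) and *lss*, lanosterol synthase, differed by 1.3 ± 0.38. Later steps went both ways, with *cyp51* (1.23 ± 0.25) and *ebp* (1.13 ± 0.18) higher and *dhcr7* (-0.95 ± 0.21) lower. The receptor *ldlra*, which takes up lipoproteins, was the lowest, with 148, 192 and 189 at 8 dpf, against 930.0, 788 and 1018 at 5 dpf (-2.37 ± 0.16). Of the fatty acid synthesis genes, *fads2*, a desaturase, was highest but its pools overlapped (1.55 ± 0.66), *ME1* came next (0.93 ± 0.35), and *acsl3a* (-2.05 ± 0.29) and *h6pd* (-1.85 ± 0.14) were lowest. The medians of fatty acid synthesis (-0.23, and 0.23 with the values as deposited) and of mitochondrial fatty acid oxidation (-0.35 and 0.12) were close to that of all identifiers, with *ACAA2* (0.98 ± 0.08) and *acadvl* (-0.86 ± 0.06) at the ends of the second list.

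The muscle lists differed in the direction of their medians. Of 34 fast muscle genes 3 were 2-fold higher and 3 lower, with a median of 0.47. Over all identifiers 2.91% were 2-fold higher and 20.5% lower. The fast muscle list held 9.63 to 12.2% of a library at 8 dpf, against 6.2 to 7.18% at 5 dpf. The skeletal actin *acta1b* had 41024, 28279.9 and 35101 at 8 dpf, against 13586, 14701 and 10469 at 5 dpf (1.43 ± 0.21) and the calcium pump *atp2a1l* differed by 1.08 ± 0.08. The troponin I genes *tnni2a.1* (-2.82 ± 0.20) and *tnni2a.2* (-2.0 ± 0.10) had the lowest differences of the list. A further troponin I identifier, *TNNI2* (ENSDARG00000013752), named after its values were seen, was higher (2.04 ± 0.44). Of 23 slow and cardiac genes 8 were 2-fold lower (median -0.67). The atrial myosin light chain *myl4* had 62.5, 63.9 and 56.3 at 8 dpf, against 832, 784 and 835 at 5 dpf (-3.73 ± 0.06), and *MYL7*, a light chain of the heart, differed by -2.37 ± 0.39, while *tnni1c* (0.90 ± 0.09) and *tnnt1* (0.64 ± 0.09), of slow troponin, were higher.

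Neural lists differed little. The median of 24 synaptic genes was -0.07 (0.15 with the median-of-ratios scaling), none was 2-fold higher, and *snap25b*, of the release machinery (0.50 ± 0.06), and *syt2a* (-1.71 ± 0.40) marked its ends. Progenitor genes had a median of 0.24, with *fabp7a*, of radial glia, 2-fold higher (1.12 ± 0.06). Myelin genes had one of -0.42 (0.05 with the values as deposited). *mbpa*, myelin basic protein, had 2232, 2532 and 2247 at 8 dpf, against 2229, 2116 and 2025 at 5 dpf (0.14 ± 0.07), while the receptor *erbb3a* was 4-fold lower (-2.20 ± 0.06). Of 28 clock genes 6 were 2-fold lower and 1 higher (median -0.55), shares near the 20.5% and 2.91% of all identifiers. *arntl1a*, of the activating arm, had 604, 718 and 677 at 8 dpf, against 309.6, 335 and 301 at 5 dpf (1.08 ± 0.09), and *per3*, of the repressing arm, had 443, 655 and 554 at 8 dpf, against 1470.0, 1839 and 1879 at 5 dpf (-1.66 ± 0.20), followed by the output gene *dbpa* (-1.63 ± 0.13). *clocka*, like *arntl1a* of the activating arm, differed by -1.40 ± 0.15, and *PER2*, like *per3* of the repressing arm, by 0.71 ± 0.10. The cryptochrome gene *cry3b*, which is not on the list and was named after its values were seen, differed by 2.06 ± 0.13. The hour of collection is not given in the sources used here.

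The blood, immune and pigment lists had negative medians, and their shares of 2-fold lower genes are to be read against 20.5% of all identifiers. Of 15 red cell genes 5 were 2-fold lower and 1 higher (median -0.74). *hbae3*, an embryonic globin, had 823, 932 and 1141 at 8 dpf, against 5154, 4078 and 6582 at 5 dpf (-2.43 ± 0.24). Of the transferrin receptor genes on the list, *tfr1b* was higher (1.83 ± 0.10) and *tfr1a* lower (-1.32 ± 0.22), both without overlap. Of 23 immune genes 6 were 2-fold lower and none higher (median -0.64), led by the complement factor *cfb* (-2.79 ± 0.20) and *mpx*, the neutrophil peroxidase (-2.74 ± 0.31), with *cd74a*, an antigen presentation chaperone, highest (0.67 ± 0.28). The share of immune genes lies near that of all identifiers. Pigment genes, 6 of 16 of which were 2-fold lower and 1 higher, had a median of -0.82, from *xdh*, of pteridine and purine metabolism (-4.13 ± 0.22), to *pmelb*, of the melanosome (1.26 ± 0.26). Besides *STC1*, the list of hormone receptors and the growth axis held lower receptors (median -0.88), with *ghra* for growth hormone at -2.61 ± 0.17 and *vdrb* for vitamin D at -2.60 ± 0.31.

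The heat shock list was divided and its median of 0.03 hides this. In all, 6 of 21 were 2-fold higher, among them *hspb9*, a small heat shock protein, with 287, 179 and 159 at 8 dpf, against 36.1, 26.6 and 24.1 at 5 dpf (2.78 ± 0.31), and 2 were 2-fold lower, *nqo1*, a quinone reductase (-1.43 ± 0.17), and *dnajb1b*, an Hsp40 (-1.08 ± 0.13). Folding genes of the endoplasmic reticulum had a median of 0.003, with *creld2* (1.09 ± 0.12) and *manf* (0.78 ± 0.10), both secreted in stress of this compartment, highest and the acinar *pdia2* lowest.

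Since these lists come from many tissues, the label of whole larvae was set beside them. Members of the acinar, enterocyte, liver, rod, cone, lens, red cell and muscle lists were kept. The filter required a mean of at least 20 at each age, so the presence of kept members at both ages was fixed in advance. It therefore says nothing about the tissues sampled. The medians of the enterocyte, acinar, hepatic, fin fold and cartilage lists were below -1, while the medians of the synaptic (-0.07) and fast muscle (0.47) lists were above that of all identifiers. Whether the tissue composition of the sampled material differed between the ages was not tested.

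Ranks, which do not depend on the scaling of a library, put many of the same genes first. The rank percentile of a gene is its place among the 18533 identifiers of a pool, with 100 for the highest value, averaged over 3 pools. *col10a1a* stood at the 8.9 percentile at 8 dpf, against 95.7 at 5 dpf, and *SLC6A19* (ENSDARG00000091560) at 5.7, against 88.7. The other 3 largest losses were those of *slc15a1b*, *DGAT2* and *znf1179*. *zgc:153846* gained most, with 92.5 at 8 dpf, against 2.2 at 5 dpf, followed by *hspa1b* with 82.2, against 1.8. The others among the 5 largest gains were *si:ch73-110p20.1*, *si:dkey-238c7.13* and *si:dkeyp-116a7.2*. Among the lists, the median percentile of the enterocyte genes was 41.0 at 8 dpf, against 87.7 at 5 dpf, and that of the hepatic genes 52.8, against 84.5. The median of the acinar genes was 77.5, against 97.4, and *apobb.1* stood at 95.9, against 99.9. DNA replication genes stood at 66.4, against 49.0, and cholesterol synthesis genes at 54.8, against 34.6.

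**Figure D5:**
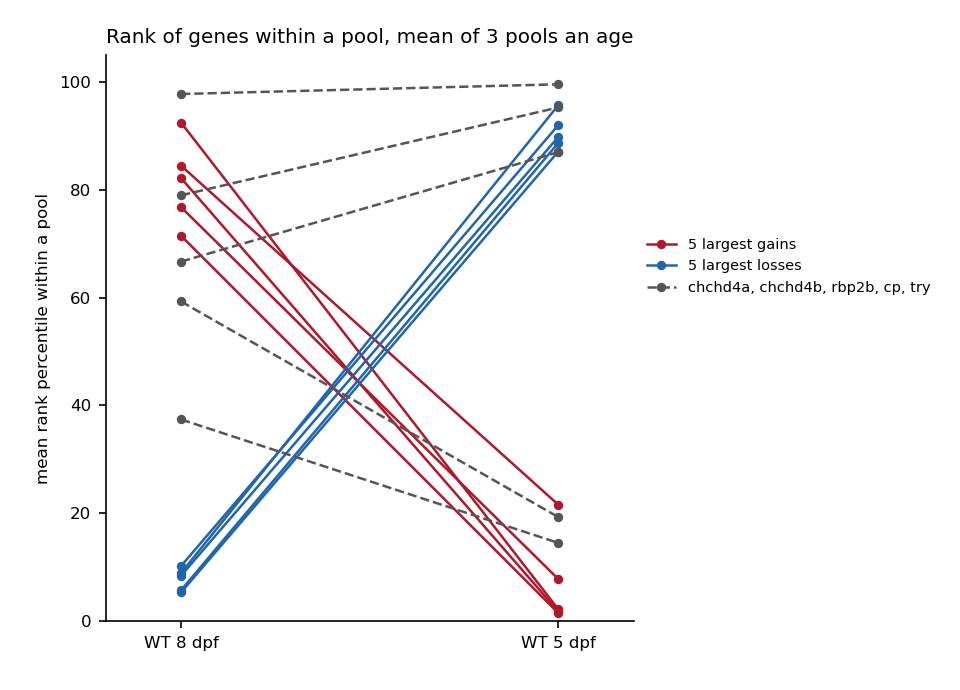
Mean rank percentile within a pool (vertical axis) at WT 8 dpf (left) and WT 5 dpf (right) for the 5 genes with the largest gain at 8 dpf (red), the 5 with the largest loss (blue) and 5 genes the study follows (grey, dashed). The lines of gains and losses cross, with *col10a1a* at 8.9 and 95.7 and *zgc:153846* at 92.5 and 2.2.

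The 2 genes for Mia40, the receptor and oxidase that brings cysteine-rich proteins into the intermembrane space of mitochondria, were both higher in WT at 8 dpf. *mia40a* (*chchd4a*, ENSDARG00000033376) had 396, 359.7 and 344 at 8 dpf, against 95.4, 109.9 and 111 at 5 dpf (1.79 ± 0.09) and its percentile was 59.3, against 19.3. *mia40b* (*chchd4b*, ENSDARG00000040707) had 138, 159.8 and 166 at 8 dpf, against 87.3, 84.6 and 78.2 at 5 dpf (0.88 ± 0.09). Neither had pools that overlap between the ages, and the first difference was the larger one. At any fold, pools did not overlap for 24.6% of all identifiers upward and 46.3% downward. In the Mut pools *mia40a* had 327, 341 and 368 at 8 dpf, against 323, 299.6 and 301 at 5 dpf, a difference of 0.16.

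The same difference between the ages was computed in the Mut pools and is given for named genes only, side by side and with no test of the genotypes against each other. After the batch removal at 8 dpf, the mean of the libraries numbered 3 nearly equalled that of the others. WT and Mut values are thus not independent at that age. The study based its further analysis on 5 dpf, because starvation could bias expression in the 8 dpf mutants. The median of all identifiers was -0.25 in Mut and -0.23 in WT. For the gut genes *slc15a1b* (-6.74 in Mut, -5.89 in WT) and *anpepb* (-5.20 in Mut, -4.31 in WT), values were low at 8 dpf in both genotypes. *col10a1a* differed by -4.22 in Mut and -6.60 in WT, and its Mut 8 dpf pools had 19.6, 740.0 and 64.0. *zgc:153846* differed by 6.02 in Mut and 6.18 in WT, *STC1* by 3.19 in Mut and 3.14 in WT, and *hspa1b* by 2.55 in Mut and 5.07 in WT. The median over the crystallins was 0.06 in Mut and 1.78 in WT, and over the aminoacyl-tRNA synthetases -0.07 in Mut and 0.71 in WT. *rbp2b* differed by -1.0 in Mut and -1.54 in WT, *cp* by -1.33 in Mut and -2.06 in WT, and *try* by -2.36 in Mut and -2.0 in WT.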

How the data were processed

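RNA of pools of 5 whole zebrafish larvae was sequenced from stranded mRNA libraries. Per the submitters' processing notes and the methods of the study, reads were trimmed with Trimmomatic 0.33, aligned to GRCz10 with STAR 2.4.0a and counted per gene with featureCounts 1.4.5-p1, which left out reads that fell on several places or genes. The deposited values are a score: counts that the authors normalized with DESeq2 and rounded to whole numbers, per age. At 8 dpf the authors also required a mean of 5 or more over the libraries and removed a batch effect with edgeR 3.16.5 on the log scale, after which no value was below 4. Such values are not raw counts, so read depth is unknown here and no count model was fitted.

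Identifiers in both tables with a WT mean of at least 20 at each age were kept, each library was rescaled to the same total over them, and differences were taken on log2(value + 1) with a pseudocount of 1, which understates the change of low genes. A 4-fold or 2-fold call needs that fold and no overlap between the pools of the ages. The analysis used Python 3.11.15, numpy 2.4.6, pandas 2.3.3 and matplotlib 3.10.9, and the calls were tested on simulated data. Symbols came first from the supplement of the study and then from the reference gene names, and 17772 of the kept identifiers had one. Named genes were the 12 largest differences in each direction, the 2 highest and 2 lowest of each of 39 lists with further examples, the 2 leading identifiers without a symbol in each direction, genes the study follows (*mia40a*, *mia40b*, *rbp2b*, *cp*, *try*) and the 5 largest gains and losses in rank. A few genes that the rule names are not reported here. The members and lists were chosen with earlier results of these data known. Alternatives changed the pseudocount, the filter, the scaling, the call, the fold and the pools included.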

Additional observations from a re-analysis of the deposited data

Results flagged for a closer look

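For 6 of 178 named genes every WT 8 dpf pool lay above every WT 5 dpf pool, while every Mut 8 dpf pool lay below every Mut 5 dpf pool, with a WT difference of at least 1 and a Mut difference of at most -0.5. The difference between the genotypes was not tested, and after the batch removal the WT and Mut values at 8 dpf are not independent. The study names starvation as a possible bias in its 8 dpf mutants. Most of these genes act in lipid metabolism. *g0s2*, an inhibitor of lipolysis, had Mut pools of 102, 93.2 and 124 at 8 dpf, against 230.0, 231 and 182 at 5 dpf, a difference of -1.01, and one of 2.28 in WT. *plin2*, of lipid droplets, differed by -0.61 in Mut and 1.52 in WT. In cholesterol synthesis, *sqlea* differed by -0.99 in Mut and 1.64 in WT, and *lss* by -1.53 in Mut and 1.3 in WT (1.00 in WT without WT 5 dpf pool 1). The median of that whole list was -1.29 in Mut and 0.33 in WT. *dnase1l3l* differed by -0.73 in Mut and 1.15 in WT, and *creld2*, of the endoplasmic reticulum, by -0.60 in Mut and 1.09 in WT. Over all 18533 identifiers, 18 met these limits with WT higher and Mut lower at 8 dpf, and 2 with WT lower and Mut higher.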

How the results depend on the processing

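Of the 19 alternatives, none reversed a called difference. A called difference is at least 2-fold, and the scalings moved the median of all identifiers by less, so a reversal was unlikely in advance. With the values as deposited, 34 of 39 list medians and 117 of 178 named genes were counted as moved. With the median of ratios, 28 list medians and 53 named genes were. The number of identifiers at least 4-fold higher at 8 dpf (67) was 113 with a minimum mean of 5, 34 with one of 100, 192 with a mean of 20 at either age, 273 with no filter and 154 with the values as deposited. The number at least 4-fold lower (1008) was 432 with a minimum mean of 100 and 544 with the values as deposited. With a limit of 2-fold or 8-fold in place of 4-fold, 539 and 11 were higher and 3790 and 259 lower. Leaving out each pool in turn gave 56 to 76 higher and 900 to 1081 lower identifiers. The median difference of all identifiers (-0.23) was 0.235 as deposited, -0.008 with the median of ratios and -0.012 with a total that leaves out the 5% of identifiers with the highest mean. Lists with a median of at least 1 numbered 4 as deposited, against 1, and of the 65 named genes at least 4-fold different 34 were left with a minimum mean of 100, which 56 named genes did not reach. Pseudocounts of 0.5 and 10 gave 67 and 56 higher identifiers. No paired analysis was possible because the ages lie in tables that were normalized separately and no test was made between them.

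Age, feeding and normalization changed together, so no difference can be assigned to one of them. Negative differences of less than about 0.5 in size on the log2 scale do not keep their sign with the values as deposited. Read depth was not known, and the only measure of precision is the spread of 3 pools, which at 8 dpf is what the batch removal left. Identifiers with no 8 dpf value were not analysed here.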
